A study of Xenopus tropicalis with 3 samples.

Results

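The genes described here encode the initiation and elongation factors of cytoplasmic translation, together with the enzymes and binding proteins that share their symbols. They were taken from a table of total RNA in the animal cap of Xenopus tropicalis by name alone, as every gene whose symbol starts with eif and a digit, with eef1 or with eef2. The rule found 51 of the 17647 genes listed, with 103 transcripts among the 35047 rows. Some known genes of these families, such as eif2s2, eif2b4, eif3a, eif3c, eif3f, eif4a1, eif4g2, eif4g3 and eef1a2, were not analysed here.

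The animal cap is the roof of the blastula, which was dissected by hand and develops as prospective epidermis. It was sampled at 3 stages, NF10.5, a gastrula, NF16, a neurula, and NF24, a tailbud embryo. No genotype, strain or agent is named for any stage, and each is labelled with 3 biological replicates. The deposited table has 1 value per stage, which was read as a mean that the authors took over the 3, so no spread can be given and no test between stages was possible. Values are FPKM, a fragment count corrected for transcript length and library size, which can be compared between genes. The sequencing depth is unknown.

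Translation starts when eIF2 carries the initiator tRNA to the small ribosomal subunit, which eIF3, eIF1, eIF1A and eIF5 hold in a scanning state. The mRNA is brought in by eIF4F, made of the cap-binding eIF4E, the helicase eIF4A and the scaffold eIF4G. During elongation eEF1A delivers each aminoacyl-tRNA, the eEF1B complex recharges it with GTP, and eEF2 moves the ribosome along. Eggs and early embryos of Xenopus are known for storing mRNAs in a masked form, with variant eIF4E proteins and the eIF4E-binding protein 4E-T among the components of the repressing complexes.

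A gene is called higher or lower where log2(FPKM + 1) differs by at least 1 between stages, among the 11771 genes with at least 1 FPKM at 1 or more stages. This is a rule of size and not a test. Of the 51 genes, 50 passed that filter, and eef2.2, a second eEF2 gene with 0.17, 0.383 and 0.62 FPKM at NF10.5, NF16 and NF24, did not. The kinase gene eef2k passed only through its later values and the methyltransferase gene eef2kmt only through NF10.5, so their calls are partly built in.

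At NF16 against NF10.5, 6 of the 50 genes were called higher (12%, against 20.9% of all genes compared) and 17 lower (34%, against 39.0%). Both shares were below those of all genes. The median log2 difference was -0.22, against -0.57 over all compared genes. By symbol, 4 of 9 elongation genes were higher (eef1a1, eef1a1o, eef2.1 and eef2k, 44.4%) and 1 lower (eef2kmt, 11.1%). The calls of eef2k and eef2kmt are partly built in, and both genes encode regulators of eEF2 and not factors. Of 41 genes with initiation symbols, 2 were higher (4.88%) and 16 lower (39.0%), the last about equal to the share of all genes. These 16 include eif1ad, 4 eIF2 kinase genes and eif4enif1, which do not encode factor subunits. Over the 40 compared members classed as factor subunits, 5 were higher (12.5%) and 10 lower (25%), both below the shares of all genes. The 10 include eif4a3, classed there with its family although its product is not part of eIF4F. At NF24 against NF16, only eef2k was called higher, and eif4e1b was the 1 gene called lower (2% each, against 6.91% and 4.84% of all genes). At NF24 against NF10.5, 5 were called higher and 14 lower (10% and 28%, against 25.4% and 36.9%). The comparisons share stages, so they are not separate pieces of evidence. In all, 24 genes were called in at least 1 comparison and 26 in none.

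The scale between stages matters for these counts. Median-of-ratios scaling moved the median of all genes by 0.54 at NF16 against NF10.5, and then 14 members were higher (28%, against 27.9% of all genes) and 9 lower (18%, against 24.2%). The share of higher calls was thus below that of all genes as deposited and about equal to it with this scaling. Genes that were called higher only with it included eif1, eif5 and eif4b, so the counts by symbol depend on the scale too. The same scaling gave, at NF24 against NF16, 1 higher and 2 lower (5.38% and 6.67% of all genes), and at NF24 against NF10.5 it gave 9 higher and 10 lower (30.8% and 26.4% of all genes). Of the 23 members called at NF16 as deposited, 13 were also called after rescaling to TPM, which gives every stage the same total, after median-of-ratios scaling and after quantile normalization. These were the higher genes eef1a1, eef2k, eif4a2 and eif4e2 and the lower genes eif1ad, eif2ak1, eif2ak2, eif2b2, eif2b3, eif2b5, eif4e3, eif4enif1 and eif6. None of the 23 changed sign under any of these 3 scalings. With a pseudocount of 5, however, eif4a2 (0.88), eif4e2 (0.77) and eif2ak2 (-0.97) were not called.

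**Figure D1:**
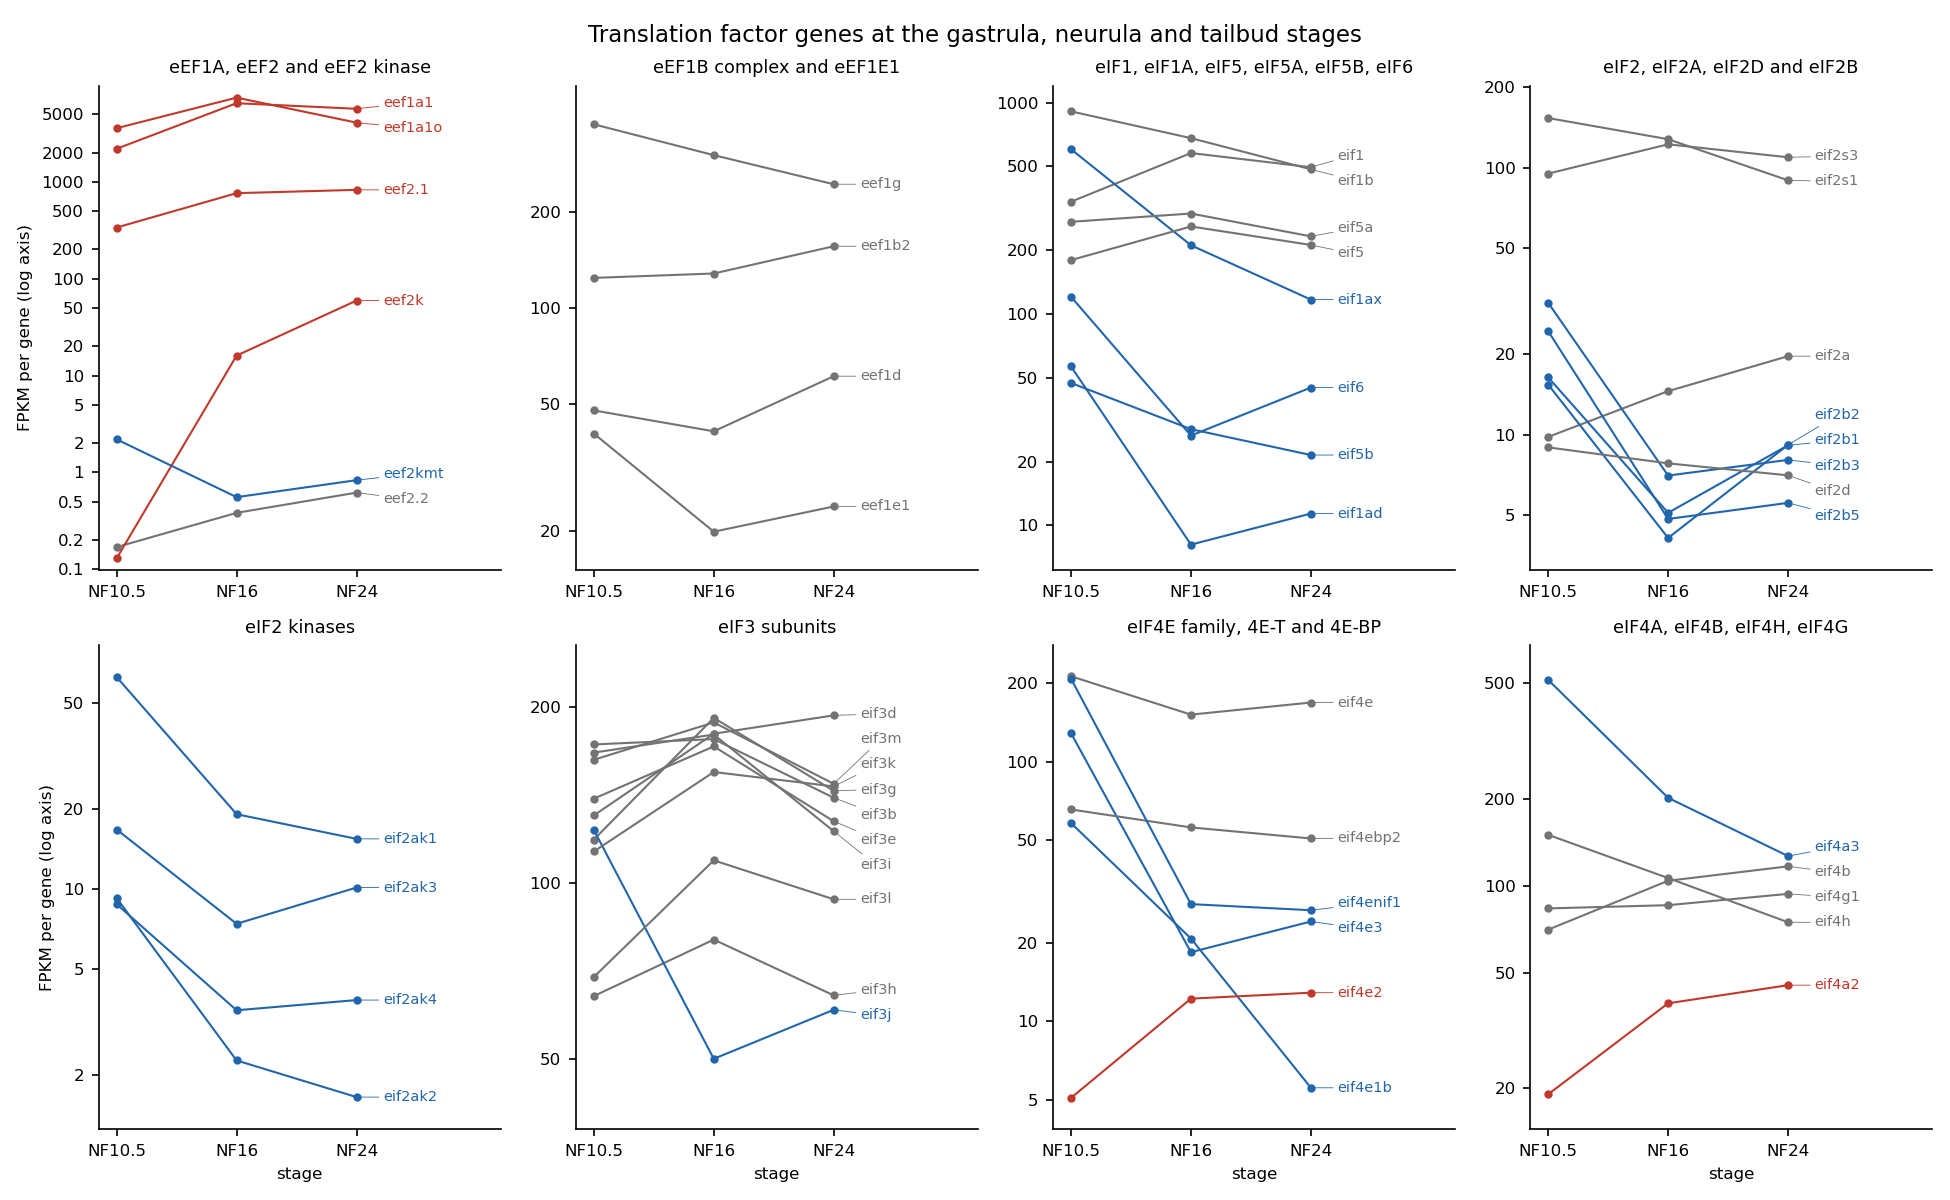
FPKM per gene (log axis) of the 51 genes at NF10.5, NF16 and NF24, by role. Each line is 1 gene and each point the authors' mean; red lines were called higher and blue lines lower at NF16 or NF24 against NF10.5, and grey lines neither. The eIF2B genes and eIF2 kinases were all called lower at NF16 against NF10.5, as were 39.0% of all genes, while 9 of 10 eIF3 genes stay within the rule of size.

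**Figure D2:**
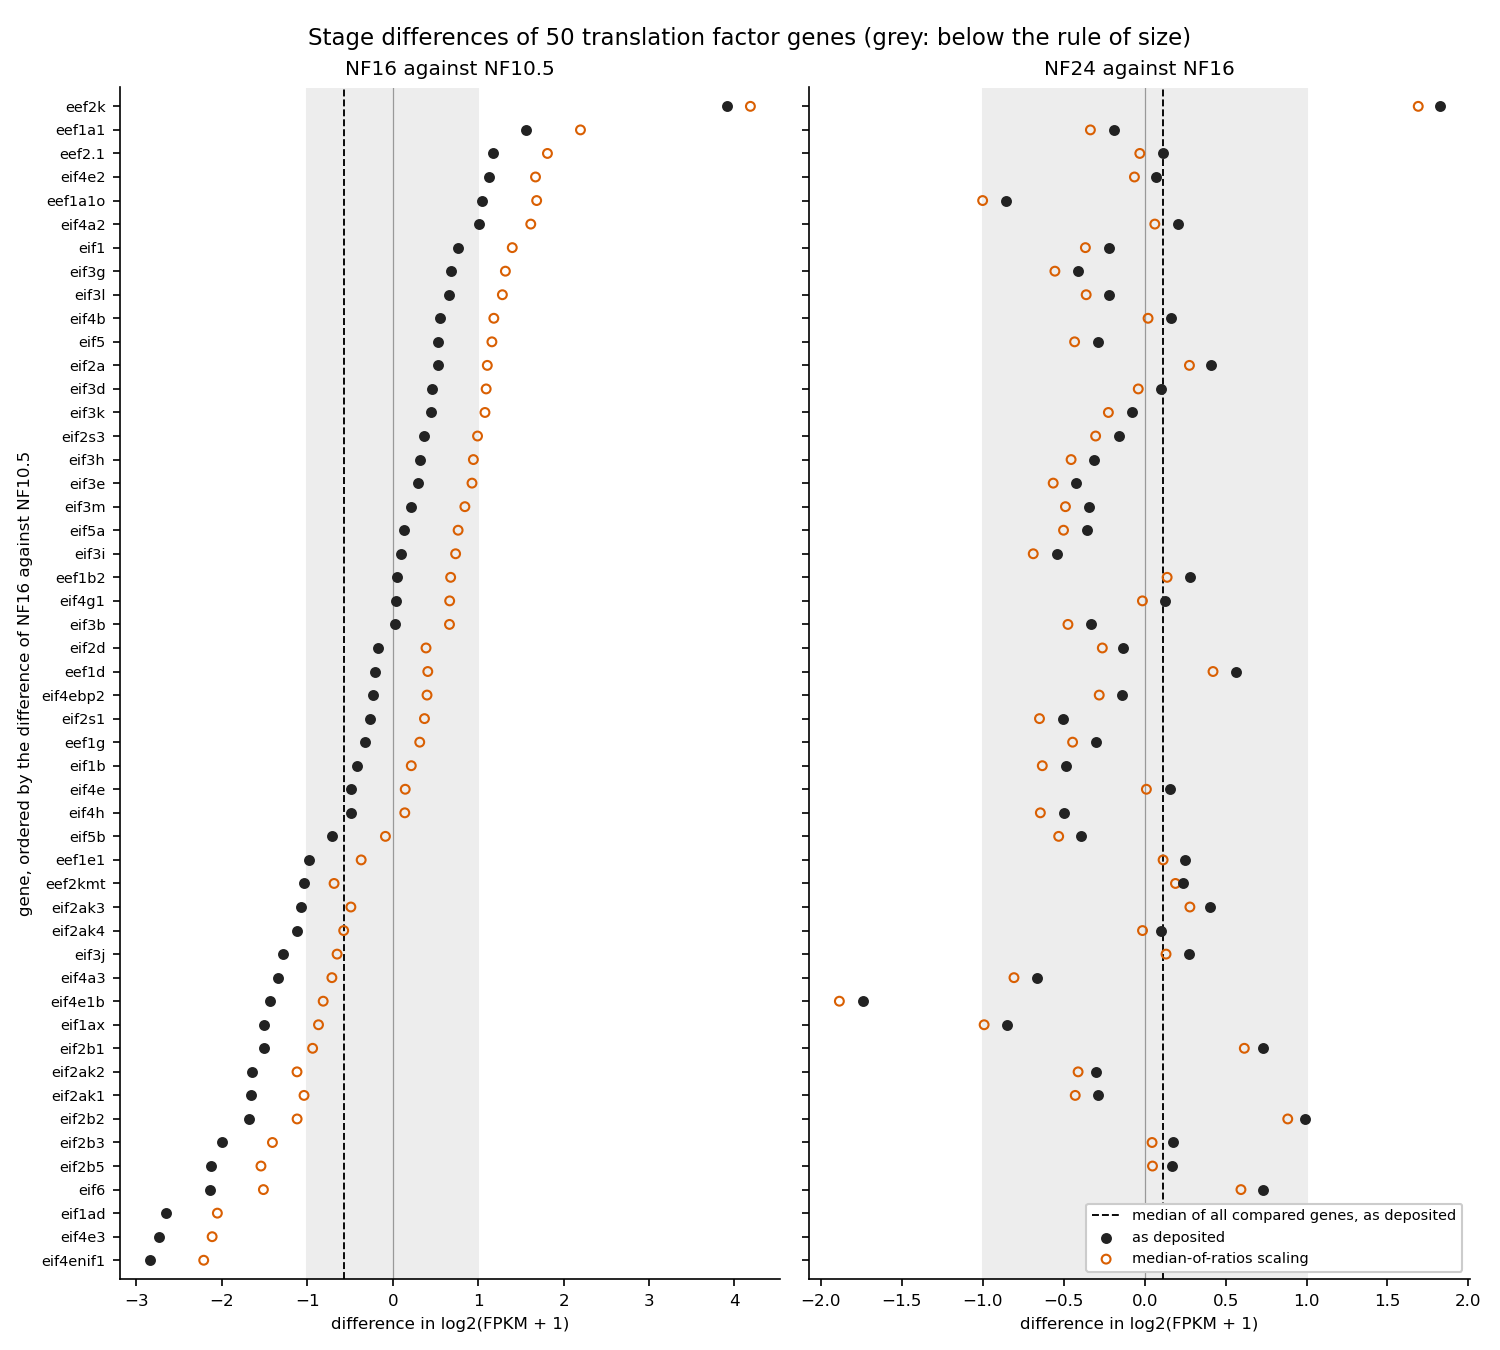
Differences in log2(FPKM + 1) of the 50 compared genes at NF16 against NF10.5 (left) and NF24 against NF16 (right), as deposited (filled) and with median-of-ratios scaling (open). Dashed lines mark the median of all compared genes, at -0.57 and 0.12, and the grey band holds differences below the rule of size; eef2k and eif4e1b are the filled points outside it on the right.

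Among the members, the genes of the cap-binding step included paralogues called in opposite directions. The common cap-binding protein gene eif4e had 213, 152 and 169 FPKM at NF10.5, NF16 and NF24 and was not called. Its oocyte-type relative eif4e1b had 58.0, 20.9 and 5.55 FPKM, lowest at the tailbud stage. The log2 difference of eif4e1b was -3.17 at NF24 against NF10.5 and -1.74 at NF24 against NF16. At NF16 against NF10.5 it was -1.43 as deposited but -0.81 under median-of-ratios scaling and -0.83 after quantile normalization, and so not called there.

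The other relatives differed in opposite directions. The gene eif4e3, whose product binds the cap in an atypical way, had 129, 18.5 and 24.2 FPKM at the 3 stages. Nearly all of its difference lay in the first step, with a log2 difference of -2.74 at NF16 against NF10.5 and 0.37 at NF24 against NF16. In contrast eif4e2 had 5.07, 12.2 and 12.9 FPKM, and was called higher at NF16 (1.12). By its symbol this gene encodes the cap-binding repressor 4EHP, but RefSeq's list has its matched transcripts under LOC448677, so the identity rests on the symbol. The gene eif4e2 was the scarcest of the 4 at NF10.5 and NF16, and eif4e1b was the scarcest at NF24.

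Shares within the family do not depend on a single scaling factor per stage. The share of eif4e in the summed FPKM of the 4 genes was 52.6% at NF10.5, then 74.6% at NF16 and 79.8% at NF24. That of eif4e3 was 31.8%, 9.08% and 11.5%, that of eif4e1b 14.3%, 10.3% and 2.62%, and that of eif4e2 1.25%, 6.02% and 6.09%. The family summed to 405 FPKM at NF10.5, then 203 at NF16 and 212 at NF24.

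The gene eif4enif1, which encodes 4E-T, a protein that binds eIF4E and keeps it from eIF4G, had the lowest difference of all 50 at NF16. It had 209 FPKM at NF10.5, then 28.3 at NF16 and 26.8 at NF24, a log2 difference of -2.84 at NF16 against NF10.5. As a ratio within each stage, there was 1.02 times as much eif4e as eif4enif1 at NF10.5, then 5.37 times at NF16 and 6.31 times at NF24. The other binding protein listed, eif4ebp2, a 4E-BP that is released from eIF4E by mTOR signalling, was not called, with 65.5, 55.8 and 50.6 FPKM. Its ratio to eif4e moved less, with eif4e 3.26, 2.72 and 3.34 times as high as eif4ebp2.

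The transcripts of eif4enif1 also differed between stages. It was the only member that met the rule for a switch of leading transcript, which asks for at least 10 FPKM at both stages compared and for a gain and a loss of at least 30 percentage points. Transcript NM_001079468.1 led at NF10.5, with 104 FPKM and 49.96% of the gene, and had 2.48 FPKM (8.78%) at NF16 and 0.757 FPKM (2.82%) at NF24. The leader at both later stages was XM_012966347.2, with 60.4 FPKM (29.0%) at NF10.5, then 22.5 (79.5%) at NF16 and 19.0 (70.9%) at NF24. Both transcripts were lower at NF16 than at NF10.5, so the change of leader goes with unequal drops and not with a higher value of the later leader.

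The analysed genes of the eIF4A family, eif4a2 and eif4a3, also went apart. The gene eif4a2, which encodes a helicase of eIF4F, had 19.1 FPKM at NF10.5, then 39.3 at NF16 and 45.4 at NF24, just past the rule at NF16 (1.01). Its paralogue eif4a3, whose product is a core part of the exon junction complex deposited by splicing and not of eIF4F, had 514, 201 and 127 FPKM. The difference of eif4a3 was -1.35 at NF16 against NF10.5, and -0.71 and not called under median-of-ratios scaling; at NF24 against NF10.5 it was -2.01. Within each stage eif4a3 was 26.9, 5.12 and 2.79 times as high as eif4a2 at NF10.5, NF16 and NF24. The helicase cofactors eif4b and eif4h changed places, eif4b with 70.6, 104 and 117 FPKM and eif4h with 150.04, 106 and 74.9 FPKM. Neither was called as deposited, though eif4b was called higher at NF16 under median-of-ratios scaling (1.18). At NF24 against NF10.5 eif4b was 0.72 as deposited, and called higher with median-of-ratios scaling (1.20) and quantile normalization (1.11) but not TPM (0.91). There eif4h was -0.99 as deposited, and -0.80 to -0.50 under the 3 scalings. The scaffold gene eif4g1 stayed at 83.6, 85.8 and 93.9 FPKM.

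**Figure D3:**
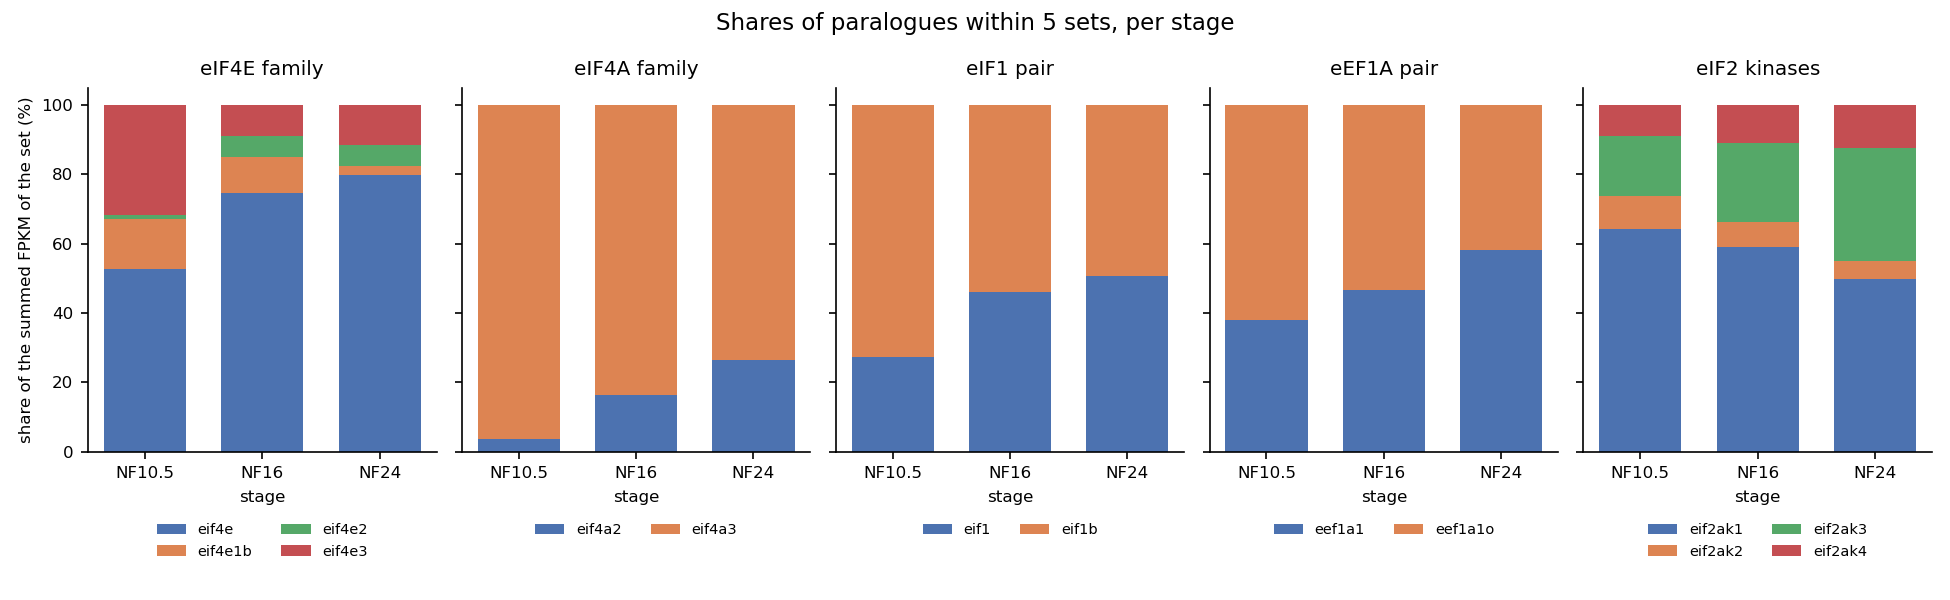
Share of each gene in the summed FPKM of its set (%), per stage. The sets are the eIF4E family, the eIF4A family, the eIF1 pair, the eEF1A pair and the eIF2 kinases. The eIF4A set holds eif4a2 and eif4a3 only, without eif4a1. Bars are the authors' means; the share of eif4e reaches 79.8% at NF24, eif4a2 26.4%, eif1 50.6% and eef1a1 58.2%, each the highest of its 3 stages.

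Among the factors that act at the start codon, the eIF1 paralogues approached each other. The gene eif1, for the factor that guards start codon choice, had 339.5, 577 and 494 FPKM, and eif1b, a close relative, 908, 679 and 483 FPKM at NF10.5, NF16 and NF24. Neither was called as deposited, and eif1 was called higher at NF16 with median-of-ratios scaling (1.40), which also turned the value of eif1b there to 0.22 from a deposited -0.42. Within each stage eif1b was 2.68, 1.18 and 0.978 times as high as eif1. Their sum was 1248 FPKM at NF10.5, then 1256 at NF16 and 978 at NF24. The partner factor gene eif1ax, encoding eIF1A, was lower at each later stage, with 602, 211 and 117 FPKM. Its log2 difference of -1.50 at NF16 against NF10.5 was -0.87 and not called under median-of-ratios scaling, and that at NF24 against NF10.5 was -2.35.

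Genes of later steps of initiation, and eif5a, showed smaller differences. The gene eif5, whose product triggers GTP hydrolysis on eIF2, had 179.8, 259 and 212 FPKM, and eif5a, for the hypusine-bearing factor that relieves stalled ribosomes, had 273, 299 and 233 FPKM. Neither was called as deposited, though eif5 was called higher at NF16 under median-of-ratios scaling (1.16). The subunit-joining GTPase gene eif5b had 47.2, 28.5 and 21.5 FPKM. It was called lower at NF24 against NF10.5 as deposited (-1.10), and not called with TPM (-0.92), median-of-ratios scaling (-0.62) or quantile normalization (-0.59).

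A larger difference was seen for eif6, whose product keeps the large ribosomal subunit from joining too early and takes part in its assembly. It had 121 FPKM at NF10.5, then 26.6 at NF16 and 44.9 at NF24, a log2 difference of -2.14 at NF16 against NF10.5. At NF24 against NF10.5 the difference was -1.41, and -0.92 and not called under median-of-ratios scaling. The gene eif1ad, named for a domain shared with eIF1A and not a canonical initiation factor, had 56.5, 8.11 and 11.4 FPKM (-2.66 at NF16 against NF10.5).

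The genes of the eIF2 cycle split by complex. Of eIF2 itself, the subunit genes eif2s1 and eif2s3 were not called, with 153, 128 and 89.6 FPKM for eif2s1 and 94.97, 122 and 109 FPKM for eif2s3. All 4 listed subunit genes of eIF2B, the factor that reloads eIF2 with GTP, were called lower at NF16 against NF10.5. Of all genes compared, 39.0% were called lower there. The catalytic subunit gene eif2b5 had 24.4, 4.83 and 5.55 FPKM (-2.12), and eif2b3 had 31.2, 7.02 and 8.04 FPKM (-2.004). The regulatory subunit gene eif2b2 had 15.4, 4.10 and 9.15 FPKM (-1.69), and eif2b1 16.4, 5.09 and 9.12 FPKM (-1.51). The last was -0.94 and not called under median-of-ratios scaling. At NF24 against NF10.5, 2 of the 4 were called lower (50%, against 36.9% of all genes). These were eif2b3 (-1.83) and eif2b5 (-1.96), while eif2b1 (-0.78) and eif2b2 (-0.69) were not called.

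At NF24 against NF16 all 4 were above 0 as deposited but not called, with 0.73 for eif2b1, 0.99 for eif2b2 and 0.17 for both eif2b3 and eif2b5. The median of all compared genes was also above 0 there, at 0.12, and eif2b3 and eif2b5 lay only 0.057 and 0.053 above it. With TPM, eif2b2 passed the rule (1.13). The values of eif2b3 and eif2b5 were slightly below 0 after quantile normalization, at -0.048 and -0.064. Within each stage, the mean of the 2 eIF2 genes was 5.68 times that of the 4 eIF2B genes at NF10.5, then 23.8 times at NF16 and 12.49 times at NF24. A single scaling factor per stage leaves this ratio as it is, while quantile normalization does not. For single genes, eif2s1 was 6.28, 26.5 and 16.2 times as high as eif2b5.

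The 4 eIF2 kinases, which phosphorylate eIF2 under stress and so block its reloading by eIF2B, were all called lower at NF16 against NF10.5 (39.0% of all genes). The heme-regulated kinase gene eif2ak1 led the group, with 62.3, 19.1 and 15.4 FPKM (-1.66). The gene of the double-stranded RNA sensor PKR, eif2ak2, had 9.24, 2.27 and 1.66 FPKM (-1.64). The gene of PERK, the kinase of the endoplasmic reticulum, eif2ak3, had 16.7, 7.40 and 10.1 FPKM (-1.08), and that of the amino acid sensor GCN2, eif2ak4, 8.77, 3.51 and 3.83 FPKM (-1.12). Neither eif2ak3 (-0.49) nor eif2ak4 (-0.57) was called under median-of-ratios scaling, nor after quantile normalization (-0.50 and -0.78). At NF24 against NF10.5 eif2ak4 was -1.02 as deposited, and between -0.91 and -0.59 and not called under the 3 scalings. The share of eif2ak3 in the summed kinases was 17.2% at NF10.5, then 22.9% at NF16 and 32.6% at NF24.

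The gene eif2ak3 was the other member in which a transcript moved by at least 30 percentage points, at NF24 against NF10.5. Its transcript XM_012955751.2 held 95.7% of the gene at NF10.5, then 72.3% at NF16 and 63.0% at NF24, and the remaining transcript XM_018095153.1 had 0.71, 2.05 and 3.75 FPKM. The leader stayed the same, so no switch was counted. Of 21 genes with several listed transcripts, only these 2 reached 30 points. The leader also differed between stages in eif5 and eif2d by smaller shifts. In eif5, XM_012968281.2 held 37.4%, 56.4% and 52.7%, and NM_001008208.1 55.1%, 40.2% and 43.9%. The scaffold gene eif4g1, with 9 listed transcripts and a steady sum, had XM_004914400.3 at 71.5%, 47.2% and 68.9% and XM_004914401.3 at 12.04%, 32.8% and 13.4%. How the reads were divided among overlapping transcripts cannot be checked from FPKM.

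The alternative tRNA carriers stayed low. The gene eif2a, encoding a factor that can bring initiator tRNA without GTP, had 9.80, 14.5 and 19.7 FPKM, and eif2d 8.96, 7.80 and 7.04 FPKM. As deposited neither was called, while eif2a was called higher at NF16 with median-of-ratios scaling (1.11) and quantile normalization (1.06). At NF24 against NF10.5 eif2a was 0.94 as deposited, and called higher with TPM (1.15), median-of-ratios scaling (1.38) and quantile normalization (1.31).

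The subunits of eIF3, the large scaffold on the small ribosomal subunit, varied little, with 1 exception. At NF16 against NF10.5, 9 of 10 genes were not called and lay between 0.03 for eif3b and 0.69 for eif3g, and all 10 were not called at NF24 against NF16 (-0.54 to 0.27). Without eif3j, their mean was 126 FPKM at NF10.5, then 159 at NF16 and 131 at NF24, in a range of 64.1 to 172, 80.1 to 191 and 64.3 to 193 FPKM. The gene with the highest value was eif3b at NF10.5 (172 FPKM), eif3g at NF16 (191 FPKM) and eif3d, whose product can bind the cap of some mRNAs, at NF24 (193 FPKM). Under median-of-ratios scaling, 4 of the 10 were called higher at NF16 (40%, against 27.9% of all genes) and 0 lower (24.2% of all genes).

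The exception, eif3j, encodes a loosely bound subunit that sits in the decoding centre. It had 123, 50.1 and 60.8 FPKM, a log2 difference of -1.28 at NF16 against NF10.5. This was -0.65 under median-of-ratios scaling and -0.94 after quantile normalization, and so not called there. At NF24 against NF10.5 it was -1.01 as deposited and called under none of the 3 scalings (-0.82 to -0.52). The mean of the other 9 was 1.025 times eif3j at NF10.5, then 3.17 times at NF16 and 2.16 times at NF24, a ratio that a single scaling factor per stage leaves as it is but quantile normalization does not.

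Among the elongation factors, eEF1A and eEF2 were higher at NF16 against NF10.5 and the exchange complex was not called. The eEF1A genes were the most abundant members. The somatic form eef1a1 had 2189.65, 6458 and 5656 FPKM at NF10.5, NF16 and NF24, and the form first described in oocytes, eef1a1o, had 3567, 7373 and 4069.8 FPKM. In the order of all genes, eef1a1 was number 22, 6 and 4, and eef1a1o number 7, 5 and 9. The difference of eef1a1 was 1.56 at NF16 and 1.37 at NF24, each against NF10.5.

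The oocyte-type gene eef1a1o was called higher at NF16 (1.05), which quantile normalization reduced to 0.68. At NF24 against NF16 it was -0.86, and -1.001 and called lower under median-of-ratios scaling. At NF24 against NF10.5 it was not called (0.19), and was -0.15 after quantile normalization. Within the pair, eef1a1 made up 38.0%, 46.7% and 58.2% of the sum, so the leading form was eef1a1o at NF10.5 and NF16 and eef1a1 at NF24. Reads that fit both copies are divided by the authors' quantification, which cannot be checked here. Together the pair held 0.995%, 2.60% and 1.92% of all FPKM, and the other 49 genes 1.15%, 1.13% and 1.04%.

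The translocase gene eef2.1 had 337, 762 and 825 FPKM. Its log2 difference was 1.17 at NF16 against NF10.5, with 0.98 and no call after quantile normalization, and 1.29 at NF24 against NF10.5. The kinase gene eef2k, whose product phosphorylates eEF2 and so slows elongation, was the 1 member called higher at both steps. It had 0.13 FPKM at NF10.5, then 16.1 at NF16 and 59.4 at NF24, with log2 differences of 3.92 and 1.82. The first of these depends on the pseudocount, with 6.14 for 0.1 FPKM and 2.04 for 5 FPKM. Of 4 listed transcripts, NM_001126674.1 held 81.1% at NF16 and 92.8% at NF24. Within each stage eef2.1 was 13.9 times as high as eef2k at NF24 and 47.4 times at NF16. The gene for a methyltransferase of eEF2, eef2kmt, had 2.20, 0.557 and 0.833 FPKM, which gave -1.04 at NF16 against NF10.5, and -0.69 without a call after median-of-ratios scaling.

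The eEF1B complex, which exchanges GDP for GTP on eEF1A, did not follow the eEF1A genes. The gene eef1g had 376, 301 and 244 FPKM, eef1b2 124, 128 and 156 FPKM, and eef1d 47.8, 41.1 and 61.2 FPKM. None of the 3 was called in any comparison as deposited or under median-of-ratios scaling. The gene eef1e1, whose product belongs to the complex of tRNA synthetases, lay just inside the rule at NF16 against NF10.5 (-0.99), with 40.4, 19.9 and 23.9 FPKM.

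Other genes of translation were examined as 8 lists with 97 measured members. At NF16 against NF10.5, 6 were called higher (6.19%, against 20.9% of all genes) and 52 lower (53.6%, against 39.0%), a median of -1.09 against -0.57 over all genes. With median-of-ratios scaling, 11 were higher (11.3%, against 27.9%) and 30 lower (30.9%, against 24.2%). The lists below are read against the same shares. At NF24 against NF16 there were 4 in each direction (4.12% each, against 6.91% higher and 4.84% lower of all genes). At NF24 against NF10.5, 8 were higher and 49 lower (8.25% and 50.5%, against 25.4% and 36.9% of all genes).

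The enzymes that modify eEF2 and eIF5A had 7 of 8 members lower (87.5%) and 1 higher (12.5%) at NF16 against NF10.5, also under median-of-ratios scaling. The diphthamide genes dph5, dph3 and dph6, which build the modified histidine of eEF2, had log2 differences of -3.41, -3.24 and -2.86. The gene dph5, for instance, had 54.01, 4.17 and 1.86 FPKM. The exception was dhps, for deoxyhypusine synthase, which performs the first step of the hypusine modification of eIF5A. It had 12.8 FPKM at NF10.5, then 178 at NF16 and 398 at NF24 (3.69 and 1.16 for the 2 steps). The gene of the second step, dohh, named after its values were seen, had 74.5, 17.1 and 28.5 FPKM.

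Of 18 translational repressors, 12 were lower and 1 was higher at NF16 against NF10.5, or 66.7% and 5.56%, which median-of-ratios scaling made 8 and 2, or 44.4% and 11.1%. The lower genes were led by zar1l, cpeb1, patl2 and msi2, with log2 differences of -4.44, -4.24, -3.76 and -3.14. The products of cpeb1, zar1l and patl2 are known from mRNA repression in oocytes, and that of msi2 is a Musashi RNA-binding protein. The higher gene was ybx1, for a Y-box protein that packages mRNA, with 713, 1548 and 1449 FPKM, named after its values were seen.

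Of 11 poly(A)-binding and partner genes, 2 were higher and 4 lower at NF16 against NF10.5 as deposited, or 18.2% and 36.4%. These shares were close to the 20.9% and 39.0% of all genes. Median-of-ratios scaling gave the same 2 and 4, against 27.9% higher and 24.2% lower of all genes. The common pabpc1 had 240.2, 498 and 506 FPKM and pabpc4 2.03, 5.12 and 8.93 FPKM, both named after their values were seen. The oocyte-type paralogue pabpc1l (embryonic poly(A)-binding protein) had 16.9, 1.71 and 0.803 FPKM. The gene pabpn1l (-3.39), a paralogue of pabpn1, the La-related gene larp1b (-3.77) and the partner gene paip1 (-1.81) were lower too. Within each stage pabpc1 was 14.2, 292 and 629.99 times as high as pabpc1l.

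Termination and rescue genes had 5 of 9 lower (55.6%) and 0 higher at NF16 against NF10.5, and 2 lower (22.2%, against 24.2% of all genes) under median-of-ratios scaling. The release factor gene etf1 had 327, 130.4 and 91.0 FPKM (-1.32), and hbs1l, n6amt1 and abcf1 differed by -1.995, -1.82 and -1.33. Of the genes listed as initiation helpers, a loose heading that does not fix their role, 8 of 11 were not called. The gene tpt1 was higher (1.06), and impact (-2.01) and dhx29 (-1.06) were lower. These are 9.09% and 18.2%, and median-of-ratios scaling made them 3 higher (27.3%) and 1 lower (9.09%). Of 12 genes of the mTOR axis, 6 were lower (50%, against 39.0% of all genes) and 1 higher (8.33%, against 20.9%). With median-of-ratios scaling 1 was lower (8.33%, against 24.2%) and 2 higher (16.7%, against 27.9%). The S6 kinase gene rps6kb1 was higher (25.2, 71.7 and 91.4 FPKM), and rptor, mknk1 and tsc2 were lower (-1.65, -1.55 and -1.52). At NF24 against NF16 mknk1 was called higher (1.03) and mknk2 lower (-1.02). That is 8.33% each, against 6.91% and 4.84% of all genes. Median-of-ratios scaling gave 0 higher and 1 lower there (5.38% and 6.67% of all genes). At NF24 against NF10.5 mknk1 was not called (-0.53).

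Of 8 mitochondrial translation factors, 6 were lower at NF16 against NF10.5, and 6 with median-of-ratios scaling (75%, against 39.0% and 24.2% of all genes). The differences of 7 of 8 were above 0 at NF24 against NF16, where the median of all genes was 0.12. The same 7 lay above that median. The genes lower at NF16 included mtrf1l (-2.36), mrrf (-2.03), mtif2 (-1.96) and gfm1 (-1.96), and gfm1 was called higher at NF24 against NF16 (1.38). Cytosolic tRNA synthetase genes with their scaffold had 10 of 20 lower (50%, against 39.0% of all genes) and 0 higher. With median-of-ratios scaling 1 was lower (5%, against 24.2%) and 1 higher (5%, against 27.9%). The scaffold gene aimp2 was lowest (-2.001), followed by farsb, iars and yars (-1.53, -1.42 and -1.35). Methyltransferases of eEF1A listed under other symbols are a list added after the table was seen. Its counts are given as deposited only, not under median-of-ratios scaling. At NF16 against NF10.5, 3 of 4 were lower (75%, against 39.0% of all genes), among them mettl13 (9.63, 1.64 and 3.31 FPKM). Of these, mettl10 lay just past the rule (-1.01). At NF24 against NF10.5, 2 were lower (50%, against 36.9% of all genes). At NF24 against NF16, mettl10 was called higher (1.07), which is 25% against 6.91% of all genes.

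Markers of cell types were also different between stages. The 8 epidermal markers were all at or above 1 FPKM at each stage, and summed to 1384, 22923 and 28188 FPKM at NF10.5, NF16 and NF24. The 4 listed mesoderm and muscle markers summed to 2.62, 188 and 252 FPKM, the 3 endoderm markers to 44.5, 6.98 and 6.91 FPKM, and the 4 neural markers to 205, 49.0 and 45.1 FPKM. Of the mesoderm and muscle markers, only myf5 was lower at each later stage (1.77, 1.55 and 0.907 FPKM). Of the endoderm markers, sox17a differed least (8.39, 5.73 and 6.30 FPKM). The neural sum was mostly sox2 (199, 37.3 and 22.1 FPKM), while tubb2b (2.33, 6.503 and 16.4 FPKM) and ncam1 (0.347, 4.06 and 5.23 FPKM) were higher at each later stage. At or above 1 FPKM were 1, 4 and 3 of the mesoderm and muscle markers, 3, 1 and 1 of the endoderm markers and 3, 4 and 4 of the neural markers. Their part in the differences above was not tested. In whole tissue, fewer cells that express a gene and less RNA per cell cannot be told apart.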

How the data were processed

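The labels describe hand-dissected animal caps whose RNA was freed of ribosomal RNA and turned into directional paired-end libraries. The submitters' processing notes list STAR 2.4.2a and RSEM 1.3.0, and the genome build is not given in the sources used here. The deposited values are FPKM per RefSeq transcript, in 1 column for each stage per the file headers. All values lie within 1e-05 of a multiple of 0.01/3, the step that averaging 3 replicates rounded to 0.01 leaves.

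For each gene the FPKM of its transcripts were added up. Differences in log2(FPKM + 1) were computed with python 3.11.15 and pandas 2.3.3 over the 11771 genes with at least 1 FPKM at any stage. The planned limma test needs replicate columns, so the fallback, a log2 difference of at least 1, was used. Of the 19 repeated rows in the table, 0 belonged to a member. Median-of-ratios factors came from compared genes above 0 at all stages. All 51 genes were found in RefSeq's list for assembly UCB_Xtro_10.0, which was used for names only. The matched transcripts of eif4e2 stand there under LOC448677, and those of eif4a3 under eif4a3.1. The steps were tested on simulated data.

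Values are given for every called member, for the rest of its paralogue set and for the most abundant member of each role. Further members were added by choice. The eIF3 genes other than eif3j are an exception, given by mean and range with single values only for the highest at each stage. Of the other lists, up to 4 called genes with the largest differences are named. The genes dohh, pabpc1, pabpc4, ybx1 and mknk2 were added to these after their values were seen. Members, lists and rules were chosen with earlier results of these data known.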

Additional observations from a re-analysis of the deposited data

How the results depend on the processing

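The counts of called members were recomputed under 10 other settings. With median-of-ratios scaling 14 were higher and 9 lower at NF16 against NF10.5 (27.9% and 24.2% of all genes). At NF24, 2 were lower against NF16 (6.67% of all genes), and 9 higher against NF10.5 (30.8%). At NF24 against NF16, TPM and a pseudocount of 0.1 each gave 2 higher (10.4% and 11.4% of all genes). Keeping only genes classed as factor subunits, eif4a3 among them, left 40, with 10 lower at NF16 against NF10.5 (25%, against 39.0% of all genes). There were then 0 higher at NF24 against NF16 (6.91% of all genes). At NF24 against NF10.5, 9 were lower (22.5%, against 36.9% of all genes). A threshold of 0.5 gave 12 higher at NF16 against NF10.5 (28.5% of all genes), 5 higher and 7 lower at NF24 against NF16 (24.9% and 15.3%), and 9 higher and 23 lower at NF24 against NF10.5 (32.9% and 48.6%). The other counts stayed within 1.5 times. Members called in opposite directions were found in 2 sets, and in 2 with median-of-ratios scaling, where eIF4A was one only at NF24 against NF10.5. With a pseudocount of 5, eif4e2 was not called (0.77 and 0.83), so eIF4E was not such a set. Asking for 10 FPKM at both stages left 2 genes with a transcript shift of 30 points. Apart from the 3 scalings, calls were lost with a pseudocount of 5 (10), with the highest transcript (2, both eif2ak4) and with a filter of 5 FPKM, which left out eef2kmt. No called difference changed sign. No paired analysis was possible because the table has 1 column per stage. Without replicate values, no library could be left out, and no detection floor could be given.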
